A study of Homo sapiens with 4 samples.

Results

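The 8 genes described here encode the cyclin-dependent kinase inhibitors CDKN1A, CDKN1B, CDKN1C, CDKN2A, CDKN2B, CDKN2C and CDKN2D and the kinase-associated phosphatase CDKN3. They were taken by gene symbol, and all 8 were found, each as 1 row, among the 18398 RefSeq transcripts measured. RNA was sequenced from Huh1 and Huh7, established lines of human hepatocellular carcinoma, after transfection with 15 nM of negative control siRNA (NCsiRNA) or of siRNA against CDCA8 (CDCA8siRNA) for 48 h. CDCA8 encodes borealin, a subunit of the chromosomal passenger complex that acts in mitosis, and the comparison asked which RNAs change when it is silenced. There were 4 libraries, 1 for each line and siRNA, so no condition had a replicate. The CDCA8siRNA was a single sequence (variant CDCA8-1) delivered by lipofection. Nothing in these libraries distinguishes its effect on CDCA8 from an effect of that sequence on other RNAs. The paper also tested other CDCA8 siRNA variants for growth, colony formation and migration, but no RNA from them is among these libraries.

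The inhibitors hold back the kinases that carry a cell through its division cycle. INK4 proteins (CDKN2A to CDKN2D) bind the kinases CDK4 and CDK6 and keep them from D-type cyclins, which leaves the retinoblastoma protein active and the cell in G1 phase. CIP/KIP proteins (CDKN1A to CDKN1C, known as p21, p27 and p57) bind complexes of cyclin and kinase, above all those of CDK2. CDKN3 differs from both families, since it is a phosphatase that removes the activating phosphate of CDK2, and its RNA is known to be made mainly in dividing cells. Loss of the CDKN2A and CDKN2B locus on chromosome 9 is a frequent event in tumors.

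The values are RPKM, in which the reads of a transcript are divided by its length and by the size of the library, so that levels can be compared between genes. The libraries held between 12197606 and 13384836 reads, deduced from the value of a single read, and 2568 to 3169 rows per library were at 0. The target fell in both lines: CDCA8 was at 24.1 RPKM with NCsiRNA and 5.86 RPKM with CDCA8siRNA in Huh1 (24.3% of control), and at 51.5 and 7.36 RPKM in Huh7 (14.3%). All 9 hepatocyte lineage markers examined were present, with ALB between 721 and 3447 RPKM. In the same limma fit that is used below, 7 of these 9 markers were called lower with CDCA8siRNA and 0 higher. AFP and TTR were not called. TTR went from 29.3 to 48.5 RPKM in Huh7 and from 5.10 to 4.49 RPKM in Huh1. Among all genes, 2.65% were called lower and 3.74% higher. With genes at low values kept in the fit, or with the line left out of it, 0 genes of any kind were called. The counts of this list were not computed under the other settings. The summed level of the markers was 5215 and 4004 RPKM in Huh1 and 3308 and 2321 RPKM in Huh7, NCsiRNA first. Of markers of other cell types, PTPRC (leukocytes) was at most 0.417 RPKM and ACTA2 (smooth muscle) at most 1.06 RPKM, whereas COL1A1, which encodes a fibroblast collagen, stood at 107 and 125 RPKM in Huh7 and at 0.115 and 0.122 RPKM in Huh1. Of these other markers, COL1A1 and ACTA2 were tested, and 0 were called for CDCA8siRNA against NCsiRNA. In the comparison of the lines in that fit, both were called higher in Huh7, as were 42.5% of all genes. COL1A1 and ACTA2 reached 1 RPKM only in Huh7 and entered the fit through that line. Their calls therefore had a direction fixed by the filter and are no test of a difference. In bulk RNA, a change in the number of cells in a state and a change in the RNA per cell cannot be told apart.

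CDKN3 was the most abundant of the 8 RNAs in every library, between 50.7 and 76.2 RPKM, above at least 92.0% of all rows. CDKN1C was the least abundant, at 0.106 RPKM or less. Between them lay CDKN1B (10.6 to 49.5 RPKM), CDKN1A (3.66 to 18.6 RPKM), CDKN2B (5.02 to 19.05 RPKM), CDKN2A (8.29 to 13.3 RPKM), CDKN2C (6.57 to 11.6 RPKM) and CDKN2D (1.39 to 4.31 RPKM). In Huh1 with NCsiRNA, CDKN1B, CDKN2A and CDKN2C were neighbours in this order at 11.6, 12.1 and 11.6 RPKM, too close to be ranked with 1 library each.

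**Figure D1:**
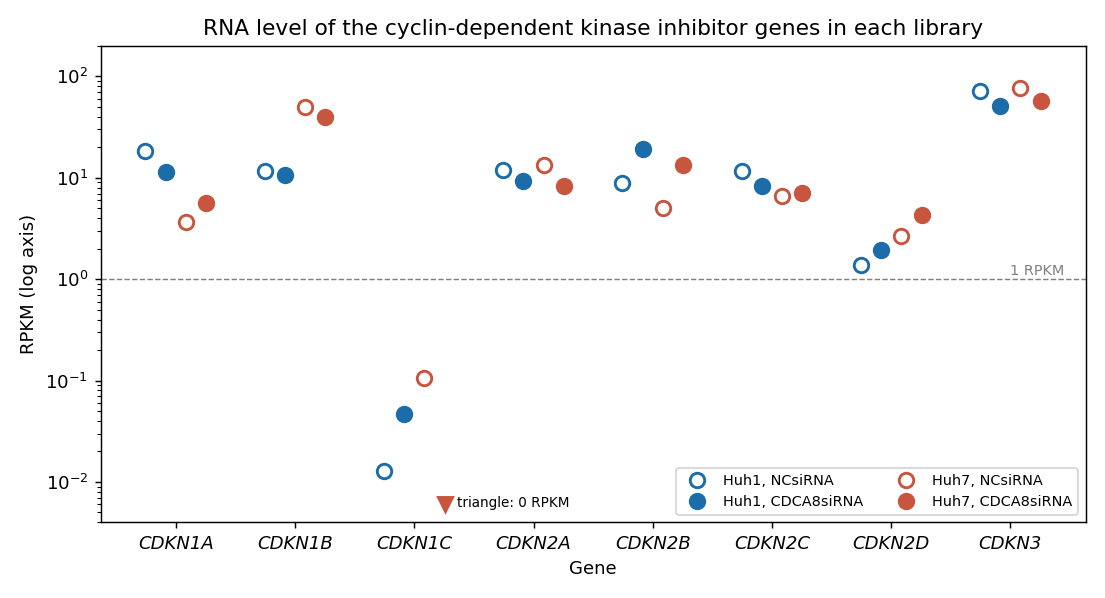
RPKM (log axis) of the 8 genes in the 4 libraries, with open circles for NCsiRNA and filled circles for CDCA8siRNA, blue for Huh1 and red for Huh7; the triangle marks CDKN1C at 0 RPKM. CDKN2B stood higher with CDCA8siRNA in both lines, CDKN3 and CDKN2A stood lower, and CDKN1A moved in opposite directions.

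CDKN2B, which encodes the INK4 protein p15, was the only inhibitor gene called higher with CDCA8siRNA. It was at 8.81 RPKM in Huh1 with NCsiRNA and at 19.05 RPKM with CDCA8siRNA, about 101 and 216 reads. In Huh7 it was at 5.02 and 13.5 RPKM, about 53 and 142 reads. Both CDCA8siRNA libraries were thus higher than both control libraries. The ratio was 2.16 in Huh1 (95% counting interval 1.71 to 2.78) and 2.68 in Huh7 (1.93 to 3.73), where the interval covers the counting of reads and no difference between cultures. On the log2(RPKM + 1) scale, CDKN2B had the 30th highest change of 10940 genes in Huh1 and the 27th highest of 11565 in Huh7. In a limma fit over the 4 libraries with the line as a term, the change was 1.15 (standard error 0.11, adjusted p = 0.00274). That fit has 1 residual degree of freedom per gene, which is the disagreement between the lines, since no transfection was repeated. limma shrinks it toward the spread of genes of like level, which counts as 7.48 further degrees of freedom, so its standard errors, intervals and p-values rest mostly on other genes. The call for CDKN2B was lost where genes at low values were kept in the fit (adjusted p = 0.252 from limma) and where the line was left out of it (adjusted p = 1.00 from limma). In Huh1, quantile normalization moved its log2 change from 1.03 to 0.97, under 2-fold.

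The row of CDKN2B is the transcript NM_078487 of 859 nucleotides in 2 exons. In the annotation of GENCODE release 29 it shares 736 of these nucleotides with the longer transcript NM_004936 of 3911 nucleotides, so the forms cannot be separated in these values. CDKN2B lies on the minus strand of chromosome 9 of GRCh38 from 22002903 to 22009363, next to CDKN2A, which lies on the same strand from 21967753 to 21995301. Of 1169 windows of 50 bases in the CDKN2A transcript, 31 occur in the CDKN2B transcript too, the only overlap of this kind among the 8 genes. Reads from that stretch can belong to either gene, and how the authors assigned them is not given in the sources used here. No exon of another gene in the annotation covers the transcripts of the 8 rows.

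CDKN2A, the neighbour, encodes p16 from this transcript and the unrelated protein ARF from another, with exons in common. These forms cannot be separated in the values either. The row of CDKN2A moved the other way. It was at 12.1 and 9.31 RPKM in Huh1 and at 13.3 and 8.29 RPKM in Huh7, NCsiRNA first, about 197 and 150 reads and 197 and 124 reads. Its ratio was 0.772 in Huh1 (0.620 to 0.960) and 0.625 in Huh7 (0.496 to 0.788). Over both lines CDKN2A fell by 0.48 on the log2(RPKM + 1) scale (standard error 0.12, adjusted p = 0.0459 from limma). This call lies close to the threshold, and it was lost with a pseudocount of 0.1 RPKM (adjusted p = 0.0596), without the mean-variance trend (0.112) and without the filter on low values (0.283) and without the line term (1.00), all from limma. Both CDCA8siRNA libraries were lower than both control libraries.

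CDKN2B and CDKN2A thus changed in opposite directions at 1 locus, and CDKN3 fell. The 250 bases before the RefSeq start (GRCh38.p14) are printed for each of these 3 genes, the members called in the limma fit. They run 5′ to 3′ on the gene's strand. Capitals mark the GC box with the letters GGGCGG, the box named for its letters CCAAT, and the cell cycle genes homology region with the letters TTTGAA. All were read on both strands, and the marked matches do not overlap. A match of letters is not a bound site.
CDKN2B chr9:22009306-22009555 (- strand): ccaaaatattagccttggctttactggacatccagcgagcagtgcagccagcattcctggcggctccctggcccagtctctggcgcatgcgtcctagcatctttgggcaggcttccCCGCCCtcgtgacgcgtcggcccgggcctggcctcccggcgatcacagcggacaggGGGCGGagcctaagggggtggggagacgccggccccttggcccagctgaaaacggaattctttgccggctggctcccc
CDKN2A chr9:21974858-21975107 (- strand): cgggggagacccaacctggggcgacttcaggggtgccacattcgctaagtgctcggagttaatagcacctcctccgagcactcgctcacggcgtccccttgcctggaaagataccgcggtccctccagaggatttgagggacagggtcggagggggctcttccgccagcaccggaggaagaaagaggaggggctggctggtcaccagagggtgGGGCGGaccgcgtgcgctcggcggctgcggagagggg
CDKN3 chr14:54396757-54397006 (+ strand): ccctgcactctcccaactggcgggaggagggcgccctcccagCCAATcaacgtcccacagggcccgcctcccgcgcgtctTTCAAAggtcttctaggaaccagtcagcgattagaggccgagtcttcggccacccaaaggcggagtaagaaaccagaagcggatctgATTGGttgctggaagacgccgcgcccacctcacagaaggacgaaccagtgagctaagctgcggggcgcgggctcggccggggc
The windows of CDKN2B and CDKN2A held 2 and 1 GC boxes, and neither held a CCAAT box or TTTGAA. The window of CDKN3 held 0 GC boxes, 2 CCAAT boxes and 1 match to TTTGAA. Among 35116 RefSeq windows of the same length, 42.6% held a GC box, 32.0% a CCAAT box and 13.3% TTTGAA. RefSeq starts lie 33, 241 and 52 nucleotides from the GENCODE starts of the CDKN2B, CDKN2A and CDKN3 transcripts. By the GENCODE gene spans, part of the CDKN2B and CDKN3 windows and all of the CDKN2A window lie inside the gene. A marked match therefore need not lie before every start of its gene. A window was found for 7 of the 8 genes, the exception being CDKN1C, and 0 of the 7 held the TATA box TATAAA, against 10.7% of all windows.

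CDKN2C, on the plus strand of chromosome 1 from 50960745 to 50974633, encodes the INK4 protein p18. Its row is a transcript of 1220 nucleotides that shares 806 of them with the longer NM_001262. It was at 11.6 RPKM in Huh1 with NCsiRNA and 8.28 RPKM with CDCA8siRNA, a ratio of 0.716 (0.568 to 0.896). In Huh7 it was at 6.57 and 7.11 RPKM, a ratio of 1.08 (0.809 to 1.43) that was not distinguishable from 1 at this depth, on about 98 and 106 reads. CDKN2C did not pass the test over both lines (log2 difference -0.17, 95% interval -0.49 to 0.16, adjusted p = 0.528 from limma).

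CDKN2D, on the minus strand of chromosome 19 from 10566462 to 10569059, encodes the INK4 protein p19 and was the lowest of its family. It was at 1.39 and 1.92 RPKM in Huh1 and at 2.64 and 4.31 RPKM in Huh7, about 26, 36, 46 and 75 reads. The ratio was 1.39 in Huh1 (0.825 to 2.42), within counting error of 1, and 1.64 in Huh7 (1.11 to 2.39). The log2 difference over both lines was 0.42 (standard error 0.15), and it did not pass (adjusted p = 0.132 from limma).

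As a family, the INK4 RNAs summed to 33.8 RPKM in Huh1 with NCsiRNA and 38.6 RPKM with CDCA8siRNA, and to 27.5 and 33.2 RPKM in Huh7. CDKN2B made up 26.0% of that sum in Huh1 with NCsiRNA and 49.4% with CDCA8siRNA. In Huh7 it made up 18.3% and 40.6%. The share of CDKN2A was 35.7% and 24.1% in Huh1 and 48.3% and 25.0% in Huh7. With CDCA8siRNA, CDKN2B was therefore the most abundant INK4 RNA by RPKM in both lines. In Huh7 with CDCA8siRNA, CDKN2B and CDKN2A held about 142 and 124 reads. Their order there rests mostly on the transcript lengths of 859 and 1218 nucleotides, and the forms of each gene cannot be separated. With NCsiRNA CDKN2A was the most abundant in Huh7, and in Huh1 CDKN2A and CDKN2C were too close to be ranked. These sums are of single libraries and were not tested.

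**Figure D2:**
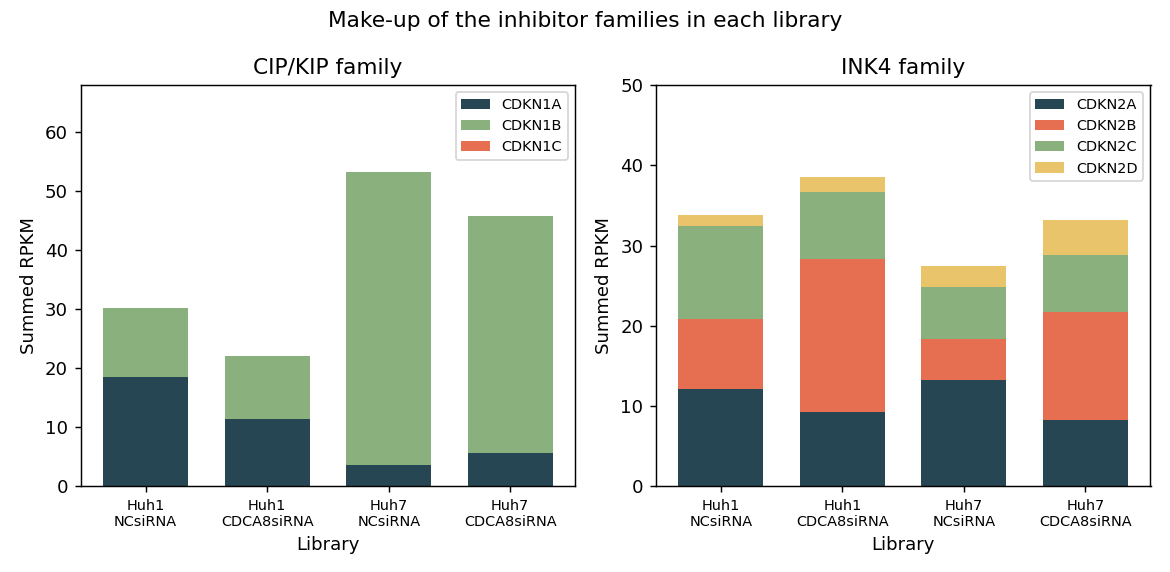
Summed RPKM of the CIP/KIP genes (left) and of the INK4 genes (right) in each library, stacked by gene. CDKN2B takes 49.4% of the INK4 sum in Huh1 and 40.6% in Huh7 with CDCA8siRNA, and CDKN1B takes 92.9% of the CIP/KIP sum in Huh7 with NCsiRNA.

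CDKN1A, on the plus strand of chromosome 6 from 36676460 to 36687339, encodes p21, a protein that binds CDK2 complexes and PCNA, and its response differed in direction between the lines. In Huh1 it was at 18.6 RPKM with NCsiRNA and 11.5 RPKM with CDCA8siRNA, about 542 and 330 reads. In Huh7 it was at 3.66 and 5.63 RPKM, about 97 and 150 reads. Its ratio was 0.618 in Huh1 (0.537 to 0.710) and 1.54 in Huh7 (1.18 to 2.01), and each counting interval lies on its own side of 1. The difference between the lines could not be tested, as 4 libraries leave no degree of freedom for it. Over both lines the log2 difference was -0.072 (95% interval -0.59 to 0.44, adjusted p = 0.884 from limma), the mean of a negative and a positive value.

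CDKN1B, on the plus strand of chromosome 12 from 12715058 to 12722371, encodes p27, a protein controlled largely through its breakdown. In Huh1 it was at 11.6 and 10.6 RPKM, a ratio of 0.912 (0.790 to 1.05) that was within counting error of 1. In Huh7 it was at 49.5 and 40.1 RPKM, on about 1604 and 1307 reads, and the ratio was 0.810 (0.753 to 0.872). It did not pass over both lines (log2 difference -0.21, standard error 0.10, adjusted p = 0.257 from limma).

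CDKN1C, which encodes p57 and is an imprinted gene on the minus strand of chromosome 11 (2883213 to 2885773), was close to undetected. It was at 0.0129 and 0.0471 RPKM in Huh1 and at 0.106 and 0 RPKM in Huh7. These values correspond to 0.333, 1.20, 2.50 and 0 reads, and were therefore not all whole reads. All lie under the 0.116 to 0.127 RPKM that 3 reads, the limit that a count of 0 allows, would give for its transcript of 1930 nucleotides. No ratio was computed, and CDKN1C was left out of the fit because it did not reach 1 RPKM in any library.

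CDKN3 fell in both lines. It was at 71.9 and 50.7 RPKM in Huh1, on about 859 and 597 reads, and at 76.2 and 57.0 RPKM in Huh7, on about 830 and 624 reads. Both CDCA8siRNA libraries were lower than both controls. The ratio was 0.706 in Huh1 (0.634 to 0.784) and 0.748 in Huh7 (0.673 to 0.830), the most even pair of responses among the 7 genes measured above 1 RPKM, differing by 0.083 on the log2(RPKM + 1) scale. The fall over both lines was 0.45 on that scale (standard error 0.086, adjusted p = 0.0219 from limma). It was no longer called without the mean-variance trend (adjusted p = 0.102 from limma) or without the filter on low values (0.252) or the line term (1.00). CDKN3 lies on the plus strand of chromosome 14 from 54396849 to 54420218, in 8 exons.

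**Figure D3:**
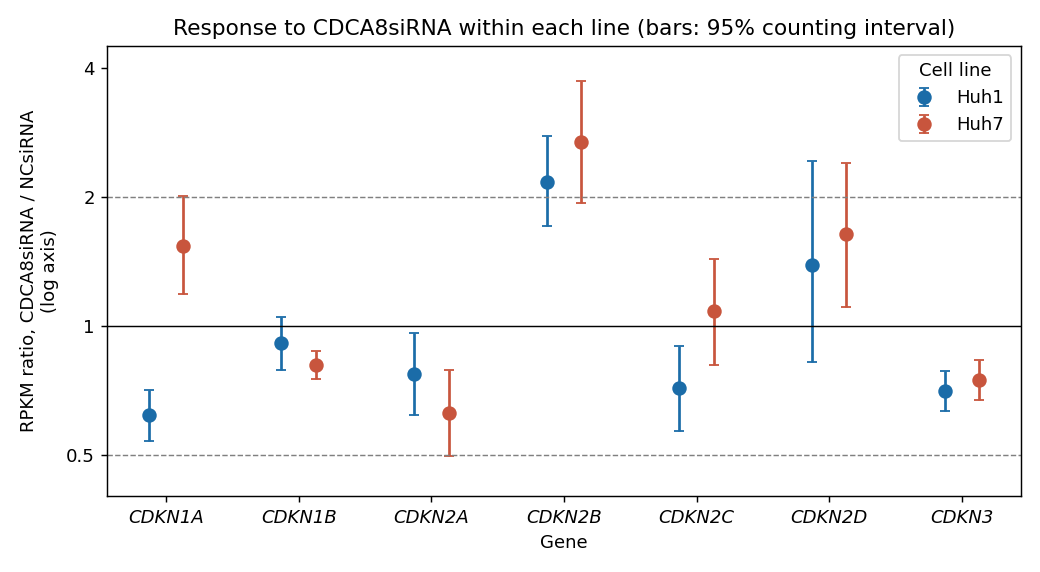
RPKM ratio of CDCA8siRNA to NCsiRNA in Huh1 (blue) and Huh7 (red) for the 7 genes with at least 1 RPKM, on a log axis; bars are 95% counting intervals and dashed lines mark 2-fold. Only CDKN2B passes 2-fold, in both lines, and the intervals of CDKN1A lie on opposite sides of 1.

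Of the 7 inhibitor genes that passed the filter of 1 RPKM, 1 (CDKN2B) was at least 2-fold higher on the log2(RPKM + 1) scale in Huh1 and the same 1 in Huh7. Among all genes, 0.32% were at least 2-fold higher in Huh1 and 0.873% in Huh7. None of the 7 was at least 2-fold lower, against 0.174% of all genes in Huh1 and 0.7% in Huh7. The median change of the 7 was -0.34 in Huh1 and 0.099 in Huh7, and that of all genes 0.023 and 0.033. By limma over both lines, 1 of 7 was called higher (CDKN2B) and 2 of 7 lower (CDKN2A and CDKN3). Among 12148 genes, 3.74% were called higher and 2.65% lower. The median log2 difference of the 7 in that fit was -0.17, and that of all genes 0.031. By direction alone, 5 of the 7 moved the same way in Huh1 and Huh7 and 2 (CDKN1A and CDKN2C) had values of opposite sign.

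The lines differed in the inhibitors they carried. CDKN1A with NCsiRNA was 5.07 times as high in Huh1 as in Huh7 (counting interval 4.10 to 6.39), and with CDCA8siRNA 2.04 times (1.68 to 2.50). CDKN1B had the reverse order, 4.26 times as high in Huh7 with NCsiRNA (3.82 to 4.76) and 3.79 times with CDCA8siRNA (3.37 to 4.26). CDKN1A accordingly made up 61.5% of the CIP/KIP sum of 30.2 RPKM in Huh1 with NCsiRNA, and CDKN1B made up 92.9% of the sum of 53.3 RPKM in Huh7.

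With the lines compared over both siRNAs in the same limma fit, CDKN1B was higher in Huh7 by 1.91 on the log2(RPKM + 1) scale (standard error 0.10, adjusted p = 5.56e-07). CDKN1A was lower in Huh7 (-1.49, standard error 0.23, adjusted p = 0.000373 from limma). CDKN2D was higher in Huh7 (0.73, adjusted p = 0.0018 from limma), while CDKN2B (-0.59, adjusted p = 0.00144) and CDKN2C (-0.46, adjusted p = 0.0171) were lower. Without the siRNA term both of these calls were lost (adjusted p = 0.381 and 0.0813 from limma), and that of CDKN2C was lost without the filter too (0.101). CDKN2A and CDKN3 did not pass, with 95% intervals of the difference of -0.27 to 0.25 and -0.071 to 0.32. In all, 2 of 7 were higher in Huh7 and 3 of 7 lower, beside 42.5% and 28.7% of all genes, so calls of this kind were common. The median gene was 0.14 higher in Huh7, a shift that quantile normalization moved to -0.0059, and the called differences kept their directions there. For these differences the repeats of a line are its NCsiRNA and CDCA8siRNA libraries.

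**Figure D4:**
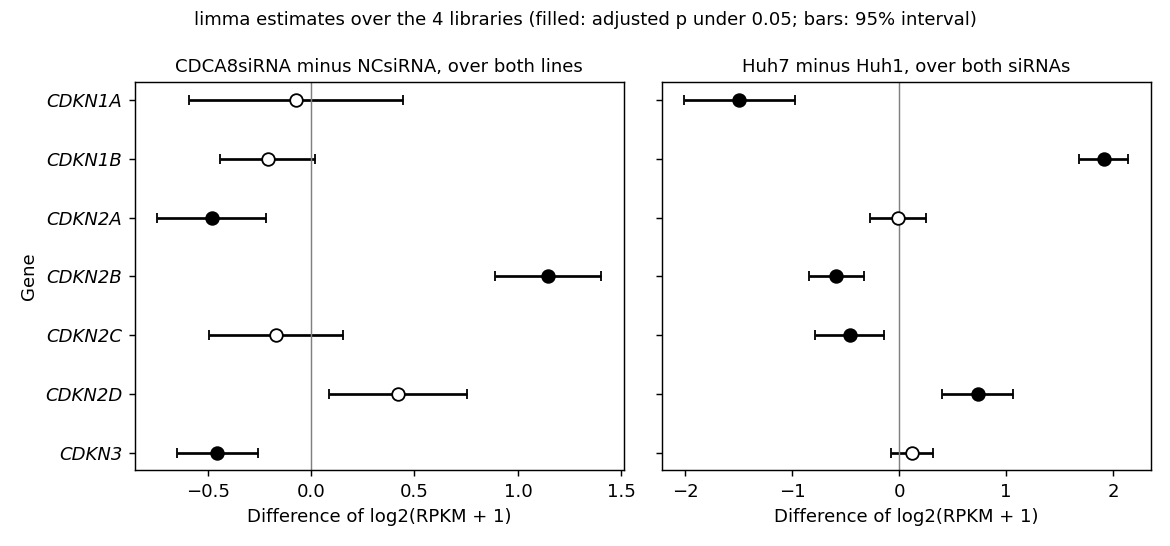
limma estimates of the difference of log2(RPKM + 1) for 7 genes, for CDCA8siRNA minus NCsiRNA over both lines (left) and Huh7 minus Huh1 over both siRNAs (right); bars are 95% intervals and filled points have an adjusted p under 0.05. CDKN2B stands at 1.15 on the left, and CDKN1A at -1.49 and CDKN1B at 1.91 mark the ends on the right.

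Genes that act with the inhibitors were examined as lists, with values given for NCsiRNA first. Of 12 cyclins and kinases that the inhibitors act on, 11 were tested by limma, and 1 was called higher and 1 lower. Among all genes, 3.74% were called higher and 2.65% lower. Both calls of the list were lost without the mean-variance trend, the filter on low values or the line term. With quantile normalization, 2 of the list were called lower. CDK6, the kinase bound by INK4 proteins, was at 11.6 and 18.9 RPKM in Huh1 and at 8.85 and 16.9 RPKM in Huh7 (log2 difference 0.76, adjusted p = 0.00837 from limma). CCNE1, the cyclin E1 gene whose complex with CDK2 is held by CIP/KIP proteins, was at 4.80 and 2.997 RPKM and at 14.0 and 7.80 RPKM (-0.65, adjusted p = 0.02 from limma). CDK4, the other kinase of the INK4 proteins, was between 101 and 139 RPKM and did not pass (0.0085, adjusted p = 0.96 from limma). The median over the list was -0.21.

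Of 10 genes of the ubiquitin ligases that mark CIP/KIP proteins for breakdown, and their partners, 1 was called higher and 2 lower. The shares of all genes were the same 3.74% and 2.65%. The number called lower was 4 with quantile normalization, upper quartile scaling or a minimum of 5 RPKM. Without the trend, the filter or the line term, 0 were called higher and 0 lower. SKP2, the subunit that recognises p27, was at 19.2 and 14.9 RPKM in Huh1 and at 39.9 and 26.9 RPKM in Huh7 (-0.44, adjusted p = 0.039 from limma). PCNA, the replication clamp on which p21 is recognised for breakdown, was at 109 and 72.8 RPKM and at 194 and 71.9 RPKM (-0.99, adjusted p = 0.0151 from limma). CUL4B, a scaffold subunit, was at 23.6 and 32.5 RPKM and at 27.6 and 35.8 RPKM (0.40, adjusted p = 0.0407 from limma). The median over the 10 was -0.20.

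Of 21 tested regulators of transcription of the inhibitor genes, 1 was called higher and 0 lower. Among all genes, 3.74% were called higher and 2.65% lower. The median of the 21 was 0.073, and 0 were called higher without the filter or the line term. With quantile normalization or a minimum of 5 RPKM, 1 was called lower. KLF6, a factor known to act on the CDKN1A promoter, was at 9.58 and 20.1 RPKM in Huh1 and at 22.5 and 42.8 RPKM in Huh7 (0.95, adjusted p = 0.00302 from limma). MYC had no row under that symbol and was not analysed here. SMAD2, SMAD3 and SMAD4, which carry the TGF-beta signal known to act on CDKN2B, had log2 differences of -0.049, 0.17 and -0.23 that did not pass (adjusted p = 0.845, 0.354 and 0.325 from limma).

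Neighbours of the inhibitor genes on the chromosome were examined too. Of MTAP, DMRTA1 and KLHL9, which flank CDKN2A and CDKN2B, 0 of 3 passed, with a median of 0.18. Among all genes, 3.74% were called higher and 2.65% lower, so 0 calls in lists this short tell little. MTAP was between 10.1 and 13.7 RPKM, and its log2 difference was 0.18 (adjusted p = 0.353 from limma). Near CDKN1C, 0 of 5 tested genes passed, beside the same shares of all genes, with a median of -0.081. SLC22A18 was at 31.7 and 25.2 RPKM in Huh1 and at 3.01 and 2.54 RPKM in Huh7, and IGF2, which is imprinted in the opposite sense to CDKN1C, was at 0.0061 and 0.039 RPKM in Huh1 and at 142 and 69.8 RPKM in Huh7. NAP1L4, TSSC4 and PHLDA2 were between 9.36 and 68.4 RPKM in the 4 libraries, whereas KCNQ1 was at most 0.031 RPKM and OSBPL5 was listed at 0 in each.

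**Figure D5:**
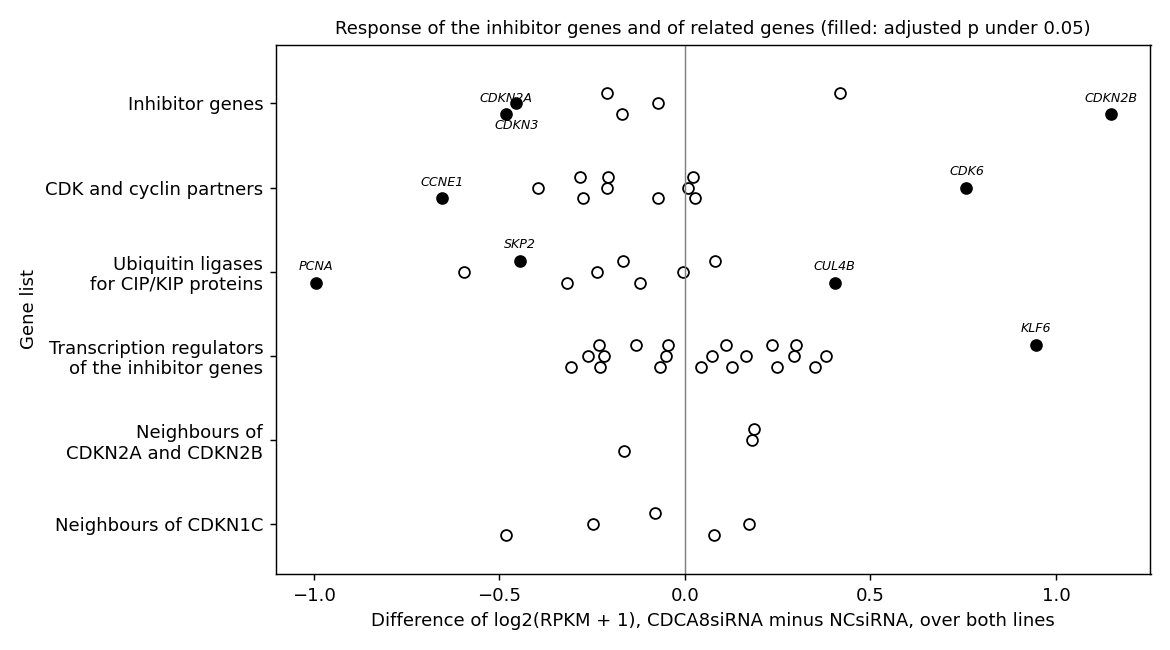
limma estimates of the response over both lines for the 7 inhibitor genes and for 5 lists of related genes, with 1 point per gene; filled points have an adjusted p under 0.05 and are named. CDKN2B at 1.15 lies to the right of every gene of these lists, and PCNA at -0.99 lies at the left end.

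The genes whose profile over the 4 libraries was most like that of an inhibitor gene were found by the Euclidean distance between centred log2(RPKM + 1) profiles. Closest to CDKN2B was FOSL1, which encodes a subunit of the AP-1 factor, at a distance of 0.116, with 12.0 and 26.4 RPKM in Huh1 and 7.86 and 18.6 RPKM in Huh7. SPTSSB and ZNF257 followed at 0.256 and 0.271. Closest to CDKN1A was C1S, which encodes a complement protease, at 0.203, with 75.5 and 57.5 RPKM in Huh1 and 20.4 and 27.5 RPKM in Huh7, before IL17RC (0.241) and OASL (0.275). Closest to CDKN3 were ZMIZ1 (0.0573), the fibrinogen gene FGB (0.0622) and DOC2A (0.0859), and closest to CDKN1B were PBK (0.0745) and SLC25A1 (0.0848). For CDKN2A they were CRLF3, KCTD6 and GSS (0.0511 to 0.0644), for CDKN2C AIM1, ZNF30 and LENG9 (0.0346 to 0.0951) and for CDKN2D TBC1D10A, SLC25A12 and DOCK9 (0.0304 to 0.065). Each is a likeness over 4 points among 12148 genes, given as a description. FGB is a hepatocyte marker of the list given above, 7 of whose 9 genes were called lower, as CDKN3 and CDKN2A were. The part of those markers in the result was not tested.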

How the data were processed

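RNA of 4 libraries was made with an Illumina TruSeq RNA kit. The authors deposited 1 RPKM value per RefSeq transcript and library, and the submitters' processing notes name CASAVA 1.8.2, TopHat2 2.0.9 and build hg19; the counting tool and its strand setting are not given in the sources used here. The unit was deduced from the values. Values were multiplied by transcript length (GENCODE release 29, matched for 17768 of 18398 rows), and the most frequent low product, shared within 1% by 237 to 254 transcripts per library, was taken as 1 read, which gave the estimated depth and reads behind each value. Other values, CDKN1C among them, need not be whole reads, and lengths may differ from those the authors used. Counting intervals are 95% exact (Clopper-Pearson) on rounded reads, cover counting error only, and treat reads as independent molecules.

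Responses were differences of log2(RPKM + 1) within a line, called at 2-fold among genes with at least 1 RPKM in 1 library of the pair, with no test. The study's own test for changed genes could not be rerun, because its design is not described. A linear model from limma 3.58.1 (R 4.3.3, lmFit and eBayes with trend) was fitted instead to log2(RPKM + 1) of 12148 genes with at least 1 RPKM in 1 of 4 libraries, with line and siRNA as terms and Benjamini-Hochberg adjustment over all genes, called at 0.05. The log2(RPKM + 1) scale understates changes of low genes. Other steps ran in Python 3.11.15 (scipy 1.17.1, pandas 2.3.3, numpy 2.4.6). The limma fit, the responses within a line and the deduced value of 1 read were tested on simulated data, in which both lines responded alike. The remaining steps were not tested in this way. Named genes were the 8 members, CDCA8, up to 2 called genes per list and direction, the 3 genes nearest to each member, and marker genes. CDK4, MTAP, DMRTA1, KLHL9, the genes near CDKN1C and the SMAD genes were named after their values were seen. The members and lists were chosen with earlier results of these data known. Coordinates are of GRCh38 and were not used with the hg19 reads. A further gene list and a further nearest gene are not reported here. Of the listed genes, MYC, H19, KCNQ1OT1, CDKN2B-AS1 and PECAM1 had no row under these symbols and so were not analysed here. Alternatives were another pseudocount, other filters, other scalings, no trend, and fits without the line or siRNA term.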

Additional observations from a re-analysis of the deposited data

Results flagged for a closer look

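CDKN1A and CDKN2C had responses of opposite sign in the lines, each as 1 library against 1 library, and neither difference was tested. For CDKN1A the response in Huh7 minus that in Huh1 was 1.16 on the log2(RPKM + 1) scale, from 0.51 in Huh7 and -0.65 in Huh1, which is 6.47 times the SD that counting of reads gives. For CDKN2C it was 0.54, from 0.099 in Huh7 and -0.44 in Huh1, which is 2.33 times that SD. The ratio of CDKN2C in Huh7 was 1.08 (counting interval 0.809 to 1.43), within counting error of 1. A rise of CDKN2C in Huh7 is therefore not shown. The SD holds no variation between cultures, which was not measured.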

How the results depend on the processing

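The 68 values of responses within a line under an alternative stayed within counting error of the reported value, and 0 changed sign. The filters only decide which genes are kept, so the values under other filters equal the reported ones by construction. Only the other pseudocount and the other scalings could move a value. Quantile normalization took the count of inhibitor genes at least 2-fold higher in Huh1 from 1 to 0. In the limma fit over both lines, 39 of 48 values for single inhibitor genes stayed on their side of the threshold and 9 lost a call. CDKN2A lost it with a pseudocount of 0.1 RPKM (-0.52, adjusted p = 0.0596), which left 1 gene called lower. Without a filter on low values, CDKN2B (1.15), CDKN2A (-0.48) and CDKN3 (-0.45) lost it (0 called in either direction). Without the mean-variance trend, CDKN2A (-0.48) and CDKN3 (-0.45) lost it (0 called lower), and CDKN2B kept it at an adjusted p of 0.0499. Without the line term, that is with no replicate block pairing the libraries of a line, CDKN2B (1.15), CDKN2A (-0.48) and CDKN3 (-0.45) lost it, with 0 called in either direction. The cause of these losses was not tested. Adjusted p-values from limma over all alternatives ran from 1.83e-05 to 1.00 for CDKN2B, from 0.00962 to 1.00 for CDKN2A and from 0.00493 to 1.00 for CDKN3. Over all genes, 454 were called higher and 322 lower. These counts were 30 and 15 without the trend, 635 and 625 with quantile normalization, and 0 and 0 both without the filter (2440 genes at an unadjusted p under 0.05) and without the line term (75 genes). At 2-fold with a pseudocount of 0.1 RPKM, 107 genes were higher and 57 lower in Huh1, and 269 and 153 in Huh7.

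For the lists, the counts of called genes were 0 in every list and direction without the filter and without the line term. Without the trend they were 0 for kinases and cyclins and for ubiquitin ligases. Genes of ubiquitin ligases called lower were 4 with a minimum of 5 RPKM, 4 with quantile normalization and 4 with upper quartile scaling. Quantile normalization also gave 2 kinases and cyclins lower, and 1 transcription regulator was lower with it and with the minimum of 5 RPKM. In the comparison of the lines, 45 of 48 values stayed on their side of the threshold. CDKN2C lost its call without the filter (-0.46, adjusted p = 0.101), CDKN2B (-0.59, adjusted p = 0.381) and CDKN2C (-0.46, adjusted p = 0.0813) lost theirs without the siRNA term, which left 1 gene called lower, and CDKN2D was under the minimum of 5 RPKM, which left 1 called higher. No replicate could be left out, since each condition has 1 library.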
